A study of Mus musculus with 8 samples.

Results

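N6-methyladenosine (m6A) peaks of RAW264.7 cells given TCP were set directly against those of RAW264.7 cells given TBP. RAW264.7 is an established mouse macrophage line. The labels give TCP and TBP as abbreviations without their full names, so nothing is said here of their structures. The TCP group was 1 immunoprecipitated library from cells given TCP at 100 µM for 24 h, and the TBP group was 1 from cells given TBP at 100 µM for 24 h, so dose and time were matched. RNA was immunoprecipitated with an m6A antibody and the recovered fragments were sequenced (MeRIP-seq). The series has 8 libraries, with 4 made from immunoprecipitated RNA and 4 from input RNA, 1 pair for each condition; the other conditions are TIP at the same dose and time and an untreated control. The 13266 peaks described here are all peaks of the TCP list (6981) and of the TBP list (6285), out of 20732 in the 4 immunoprecipitated lists of the series. They lay in 3399 genes for TCP and 3129 genes for TBP, and in 4063 genes of the 4311 with a peak in any list. Input libraries were not analysed here, so a change in methylation and a change in transcript level cannot be told apart.

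Each condition has 1 immunoprecipitated library, so no difference between TCP and TBP has a replicate check and no p-value is given. Shares carry exact Clopper-Pearson 95% intervals, and differences of shares carry Newcombe intervals. Peaks and genes are not independent cultures, and PCR reads are not independent molecules, so these intervals cover counting error only. The lists give no read counts, so depth is unknown, and a missing peak means that none was called. The authors' score per peak has no stated scale and ran from 8.73 to 40.4 in the TCP list and from 8.56 to 80 in the TBP list. It was used only to rank peaks within their own list, with rank 1 the best and tied peaks sharing a rank. Of 34 macrophage genes, 16 had a TCP or TBP peak, against 0 of 34 marker genes of lymphoid, stromal and other blood cells.

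The m6A mark is placed on messenger RNA in the nucleus by a complex built around the METTL3 and METTL14 proteins with the partners WTAP, VIRMA, ZC3H13 and RBM15. It is read by YTH-domain proteins, which link it to splicing, export, translation and decay of the transcript, and it is removed by the demethylases ALKBH5 and FTO. Most sites lie near stop codons, in 3′ UTRs and in long internal exons, within a short sequence called DRACH. In macrophages the mark is known to bear on transcripts of innate immune signalling. A peak is a stretch of transcript that the antibody enriched, not a single methylated base.

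The bases under 7 of the shortest peaks are shown because they let the sequence be read beside the call. Sequence was at hand only for peaks that lie whole within RefSeq start windows (250 bases before to 50 after a gene's start, GRCm38.p6), which held 11 TCP peaks and 12 TBP peaks of 25 bp. All coordinates are on GRCm38 (mm10). Letters are on the transcript strand, 5′ to 3′, and capitals mark matches to DRACH, which is A, G or T, then A or G, then AC, then A, C or T. Dnajc17 (a J-domain co-chaperone; chr2:119208763-119208787, minus strand), Acp6 (a lysophosphatidic acid phosphatase; chr3:97158777-97158801, plus strand) and Stx4a (a membrane-fusion syntaxin; chr7:127841815-127841839, plus strand) had a TCP peak with no TBP peak over it. Ube2n (the ubiquitin-conjugating enzyme Ubc13; chr10:95515170-95515194, plus strand), Babam1 (a subunit of the BRCA1-A repair complex; chr8:71396861-71396885, plus strand) and Imp4 (a ribosome-biogenesis protein; chr1:34439851-34439875, plus strand) had a TBP peak with no TCP peak over it. Gm15471, a predicted gene (chr3:103803154-103803178, plus strand), had the identical peak in both lists.
Dnajc17, TCP: aattcaagtttGGACTaGAACCatg
Acp6, TCP: AGACTtaattggagcaggtccgtgg
Stx4a, TCP: ggggggaagagaagggaattccaac
Ube2n, TBP: ggAGACAagagcagaggccGAACTc
Babam1, TBP: agcgccgcacAAACTtccggccagg
Imp4, TBP: gagggcggaagtgatcactgcgtgg
Gm15471, TCP and TBP: cgggggaGAACCacagcctacgcag
A DRACH match on the transcript strand lay in 4 of the 11 TCP sequences and 7 of the 12 TBP sequences, and on the opposite strand in 4 TCP and 3 TBP sequences. Of 65702 stretches of 25 bases at the start of transcription in 32851 windows, 31.3% held a match. These 7 were chosen after their sequences were seen, to show both kinds of call with and without a match.

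More TCP peaks lacked a TBP peak than met one, and TBP peaks were split evenly. Counting any same-strand overlap of 1 bp or more, 3175 of 6981 TCP peaks (45.5%, 44.3 to 46.7) met a TBP peak and 3806 (54.5%, 53.3 to 55.7) did not. Of 6285 TBP peaks, 3158 (50.2%, 49 to 51.5) met a TCP peak and 3127 (49.8%, 48.5 to 51.0) did not. The higher one-list share of TCP went with the longer TCP list. When the TCP list was cut to its best 6285 peaks, 51.7% of TCP peaks (50.5 to 53.0) and 51.9% of TBP peaks (50.6 to 53.1) were found in 1 list only, and among the best 3000 peaks of each list the shares were 45.6% for TCP and 46.3% for TBP. The 6285-peak cut falls among 1050 TCP peaks tied at the lowest score, whose order there is random.

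Overlap between the lists depended on where in its list a peak stood. In the best-scored decile, 86.3% of TCP peaks (83.5 to 88.7) and 86.3% of TBP peaks (83.4 to 88.9) overlapped a peak of the other compound. In the lowest decile the shares were 20.2% for TCP (17.3 to 23.4) and 21% for TBP (17.9 to 24.4). Median peak width fell too, from 125 bp in the best decile to 25 bp in the lowest decile of each list. From the second to the ninth decile the TCP share was lower than the TBP share at every step, as in the third decile with 61.5% for TCP and 71.9% for TBP. Shared peaks are near equal in number (3175 TCP, 3158 TBP), so their share is lower over the longer TCP list. A like slope appeared against the remaining lists of the series: 96.0% of the best decile of TCP peaks and 96.2% of the best decile of TBP peaks overlapped a control or TIP peak, against 10.2% of the lowest decile of TCP peaks and 9.55% of the lowest decile of TBP peaks.

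**Figure D1:**
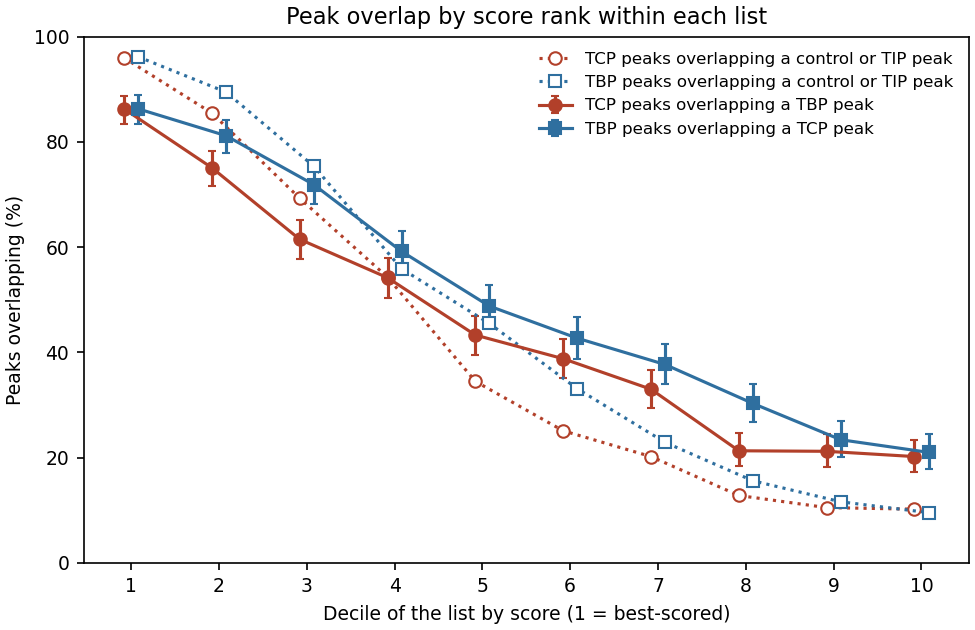
Share of peaks (%) that overlap a peak of the other compound (filled symbols, solid lines; bars are exact 95% intervals) or a control or TIP peak (open symbols, dotted lines), by decile of each list in order of score, for TCP (circles) and TBP (squares). Solid lines start at 86.3% for both TCP and TBP and end at 20.2% for TCP and 21% for TBP.

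Peaks found in 1 list only (one-list peaks, TCP-only or TBP-only) were short and low in score. Their median width was 50 bp for TCP and 25 bp for TBP, against 75 bp for the shared peaks of either list, and the 25-bp peaks, the smallest step of the authors' lists, made up 49.7% of the TCP-only and 50.4% of the TBP-only peaks, against 22.3% of the shared TCP and 20.9% of the shared TBP peaks. Their median rank was 4184 of 6981 for TCP and 3788 of 6285 for TBP. Only 96 TCP-only peaks and 91 TBP-only peaks stood in the best decile of their list.

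Most one-list peaks lay in a transcript that the other compound's list also marked. Shared peaks lie in such transcripts almost by definition, so the share over all peaks is higher. Of the 3756 TCP-only peaks with a host gene, 2622 (69.8%, 68.3 to 71.3) lay in a gene with a TBP peak elsewhere, and of the 3068 TBP-only peaks, 2279 (74.3%, 72.7 to 75.8) lay in a gene with a TCP peak elsewhere. The nearest peak of the other list in such a gene was at a median of 200 bases of genome from a TCP-only peak and 175 bases from a TBP-only peak. It was within 100 bases for 41.3% of TCP-only and 43.7% of TBP-only peaks, and it touched the peak with 0 bases between for 16.7% of TCP-only and 18.7% of TBP-only peaks. Wapl, which releases cohesin from chromatin, shows such a split: its best TCP-only peak (chr14:34691853-34691927, rank 40) ended where its TBP-only peak began (chr14:34691928-34692002, rank 91). Counting peaks within 100 bp of each other as shared brought the one-list shares to 38.8% for TCP and 33.8% for TBP. Asking instead for at least 50% of both peaks brought them to 70.8% for TCP and 67.6% for TBP. Of 3274 overlapping pairs, 564 (17.2%) had identical start and end.

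Counted by gene, the lists shared more. A peak in both lists was found for 2465 genes, which is 72.5% of the TCP genes and 78.8% of the TBP genes. Another 934 genes had TCP peaks only (27.5% of TCP genes, 26.0 to 29.0) and 664 had TBP peaks only (21.2% of TBP genes, 19.8 to 22.7). Over the 4063 genes with a TCP or TBP peak, the background against which the gene groups are read is therefore 23% TCP-only and 16.3% TBP-only. At equal list length the counts came to 800 TCP-only and 771 TBP-only genes, and among the best 3000 peaks of each list to 511 TCP-only and 510 TBP-only genes. When the tied TCP peaks at the cut were left out, which leaves 5931 TCP peaks and makes TCP the shorter list, there were 722 TCP-only and 816 TBP-only genes. The side with the longer list thus had more one-list genes, and at equal list length the lead of TCP-only genes was smaller.

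Genes marked by a single compound's list mostly had 1 peak. That was so for 780 of the 934 TCP-only genes (83.5%) and 559 of the 664 TBP-only genes (84.2%), whereas 44.8% of the genes in both lists had 1 TCP peak. At least 3 peaks were found in 38 TCP-only and 17 TBP-only genes. Protein-coding genes made up 97% of TCP-only and 96.8% of TBP-only genes, and the median gene span was 24.2 kb for TCP-only, 22.5 kb for TBP-only and 30.6 kb for genes in both. Most genes of both sets had no peak in the remaining conditions: 66.2% of TCP-only genes (63.0 to 69.2) and 62.8% of TBP-only genes (59.0 to 66.5) had neither a control nor a TIP peak, against 19.1% of the genes in both lists.

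The best-scored TCP-only genes included genes of protein turnover, mitochondria and RNA processing. Psmd4, a ubiquitin receptor of the proteasome, had 1 TCP peak in its 3′ UTR (chr3:95032769-95032868, rank 99) and 0 TBP peaks. Mrps27, a subunit of the mitochondrial ribosome, had 1 TCP peak in its 3′ UTR (chr13:99415095-99415144, rank 145), and Foxred1, an assembly factor of respiratory complex I, had 1 (rank 320). Smap2, which switches off ARF GTPases, had 2 TCP peaks (rank 366), and Rtcb, the ligase that joins split tRNAs and the spliced Xbp1 transcript, had 2 (rank 446). Pkn2, a protein kinase, had 5 TCP peaks and 0 TBP peaks, the best of them in the 3′ UTR (chr3:142793602-142793726, rank 451). The others were Elmo1, a partner of DOCK proteins in engulfment (rank 479), Nol11, a ribosomal RNA processing factor (rank 554), Grpel1, the exchange factor of mitochondrial Hsp70 (rank 618), and Bard1, the partner of Brca1 (rank 652). Tcp1, a subunit of the CCT chaperonin whose symbol has no link to the compound, and its neighbour Acat3, an acetyl-CoA acetyltransferase, had a peak at the same place on opposite strands (chr17:12924363-12924462, rank 413 in each); which of these genes gave it is uncertain. Peaks met by one on the opposite strand made up 3.77% of the TCP list and 4.44% of the TBP list. Of the 12 genes, 9 had a TIP peak and 8 a control peak, and each had one of these.

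The best-scored TBP-only genes were led by an actin-binding and a ribosomal protein gene. Tmsb4x, thymosin beta 4, which binds actin monomers, had 0 TCP peaks and 2 TBP peaks, the best in its 3′ UTR (chrX:167207343-167207467, rank 18). Rpl4, which encodes a large-subunit ribosomal protein, had 0 TCP peaks and 2 TBP peaks (chr9:64178407-64178431 in exon 10 of 10, rank 112). Genes of both kinds have near-identical copies elsewhere in the genome, so their calls are uncertain. Xpo1, the nuclear export receptor, had 0 TCP and 3 TBP peaks (chr11:23284274-23284565, rank 261), and Sec24b, a cargo adaptor of COPII vesicles, had 0 TCP and 2 TBP peaks (rank 287). Cd164, a sialomucin (rank 341), Uchl5, a deubiquitinase of the proteasome (rank 393), Ndufa2, a complex I subunit (rank 508), and Plaa, a ubiquitin-binding protein (rank 600), followed. The last of the 12 were Itgb5, an integrin chain (rank 619), Rabgef1, an activator of Rab5 (rank 658), Lyz2, lysozyme M (chr10:117277731-117277805, rank 665), and Sptssa, a subunit of serine palmitoyltransferase (rank 681). Of these 12 genes, 10 had a TIP peak and 9 a control peak, and again each had one of these.

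**Figure D2:**
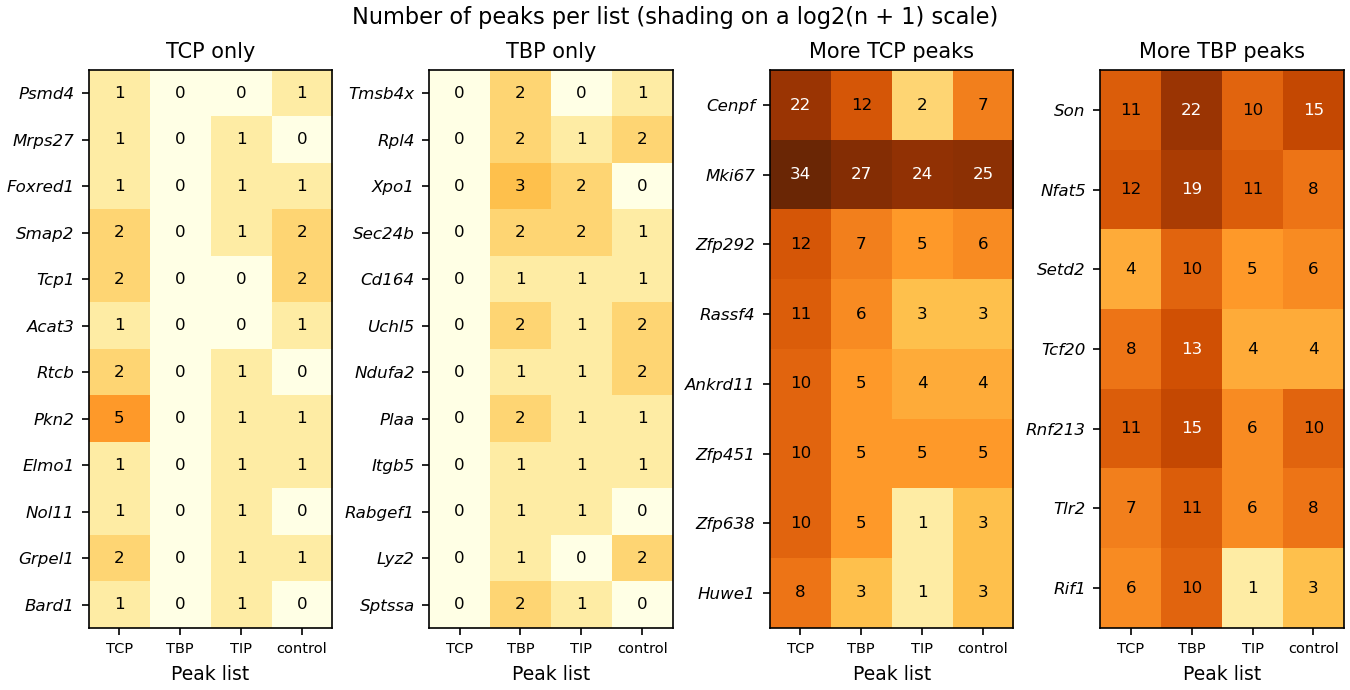
Number of peaks (cell labels; shading on a log2(n + 1) scale) in the TCP, TBP, TIP and control lists for the 12 best-ranked TCP-only genes, the 12 best-ranked TBP-only genes, and, among genes with peaks in both lists, 8 with the largest excess of TCP peaks (further genes tie with the last of them) and 7 of those with the largest excess of TBP peaks. Most one-list genes had 1 or 2 peaks, while genes such as Mki67 (34 TCP and 27 TBP peaks) were marked in every list.

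Some genes with lower scores had as many as 4 or 5 one-list peaks. Rbm39, a splicing factor, had 5 TCP peaks and 0 TBP peaks, its best at rank 3095. Ammecr1l, Erap1 (which trims peptides for MHC class I), Sephs1 (a homologue of selenophosphate synthetase) and Rhob (an endosomal small GTPase) had 4 TCP peaks each and 0 TBP peaks. On the other side Gdi2, which extracts Rab proteins from membranes, had 0 TCP and 5 TBP peaks (best rank 1571). Dnaja2, an Hsp70 co-chaperone, Ly6e, a surface protein of the Ly6 family, and Cct3, another CCT subunit, had 0 TCP and 4 TBP peaks each. Gdi2, Ammecr1l, Erap1, Sephs1 and Ly6e were chosen for their counts after these had been seen.

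In the 2465 genes with peaks in both lists, TCP and TBP peaks were similar in number and often in place. An overlapping pair of peaks was found in 1962 of them (79.6%), and 503 (20.4%) had peaks in both lists with no overlap. The numbers were equal in 1187 genes (48.2%) and within 1 of each other in 2034 (82.5%). TCP had more peaks in 733 genes (29.7%) and fewer in 545 (22.1%). Across these genes, which are not independent replicates, the number of TCP and TBP peaks had a Spearman correlation of 0.615 and the best rank one of 0.635; the points of both lists share gene length. Over all 4063 genes, 126 (3.1%) had at least 3 more TCP than TBP peaks and 58 (1.43%) at least 3 fewer. More TCP than TBP peaks were found in 1667 genes and fewer in 1209, which at equal list length became 1425 genes with more and 1374 with fewer.

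**Figure D3:**
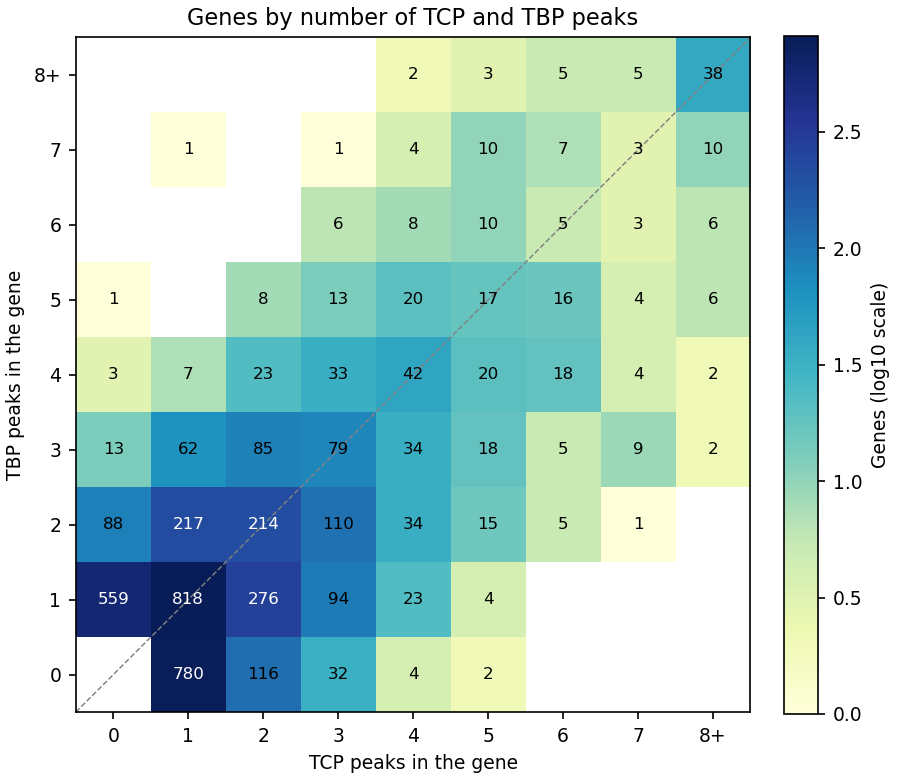
Number of genes (cell labels; colour on a log10 scale) by their number of TCP peaks (horizontal axis) and of TBP peaks (vertical axis), with 8 or more pooled; the dashed line marks equal numbers. The cell of 1 TCP and 1 TBP peak holds 818 genes, and the single-peak cells along the axes hold 780 TCP-only and 559 TBP-only genes.

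The 8 genes that both lists ranked best each had at least 1 overlapping pair of peaks. Itga4, the integrin alpha 4 chain, had 11 TCP and 12 TBP peaks, with the best in the 3′ UTR at rank 5 in TCP (chr2:79326746-79326895) and rank 1 in TBP (chr2:79326596-79326920). Eif4g1, the scaffold of the cap-binding complex, had 6 TCP and 4 TBP peaks, whose best share their start (chr16:20692310-20692484 at rank 8 in TCP, chr16:20692310-20692534 at rank 7 in TBP). Spred1, an inhibitor of RAS signalling, had 2 TCP and 4 TBP peaks, and the best was the identical interval (chr2:117177346-117177570, rank 10 in TCP and 12 in TBP). Ahnak, a giant scaffold protein, had 33 TCP and 32 TBP peaks, 15 of the TCP peaks and 16 of the TBP peaks overlapping. Mcl1, an anti-apoptotic BCL-2 protein, had 2 TCP and 3 TBP peaks. Neat1, the RNA scaffold of paraspeckles, had 3 TCP and 7 TBP peaks with best ranks of 1 in TCP and 5 in TBP, and Hspa5, the ER chaperone BiP, had 7 TCP and 3 TBP peaks with best ranks of 21 in TCP and 8 in TBP. The last of the 8, Tlr2, also belongs to the genes with an excess of TBP peaks.

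Among genes with peaks in both lists, the largest excess of TCP peaks was in Cenpf and Mki67, transcripts of dividing cells. Cenpf, a kinetochore protein, had 22 TCP peaks and 12 TBP peaks, 21 of the TCP and 11 of the TBP peaks in exons outside UTRs, and its best peaks overlapped in exon 13 of 18 (chr1:189654295-189654419 at rank 962 in TCP, chr1:189654170-189654344 at rank 756 in TBP). Mki67, the proliferation marker Ki-67, had 34 TCP and 27 TBP peaks. Zfp292 (12 TCP, 7 TBP), Zfp451 (10 TCP, 5 TBP) and Zfp638 (10 TCP, 5 TBP) encode zinc finger proteins. Rassf4, a RAS-association protein, had 11 TCP and 6 TBP peaks, Ankrd11, a chromatin regulator, had 10 TCP and 5 TBP peaks, and Huwe1, a giant ubiquitin ligase, had 8 TCP and 3 TBP peaks. For some of them the excess was not seen in the better-scored peaks. Among the best 3000 peaks of each list Cenpf kept 11 TCP and 5 TBP peaks and Mki67 kept 26 TCP and 18 TBP peaks, while Rassf4 had 4 in each list, Ankrd11 had 3 in each, and Zfp638 had 0 TCP and 4 TBP peaks.

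Among genes with peaks in both lists, the largest excess of TBP peaks was in Son, a splicing cofactor of nuclear speckles, with 11 TCP and 22 TBP peaks. All of them lay in exons outside UTRs, and the best of each list lay in exon 3 of 12 (chr16:91658990-91659064 at rank 193 in TCP, chr16:91658015-91658114 at rank 173 in TBP). Nfat5, the transcription factor of osmotic stress, had 12 TCP and 19 TBP peaks, and Setd2, the histone H3 lysine 36 trimethylase, had 4 TCP and 10 TBP peaks. Tcf20, a transcriptional coregulator, had 8 TCP and 13 TBP peaks, and Rnf213, a giant ubiquitin ligase, had 11 TCP and 15 TBP peaks. Tlr2, a receptor for bacterial lipoproteins, had 7 TCP and 11 TBP peaks, and Rif1, a replication-timing and repair factor, had 6 TCP and 10 TBP peaks. Among the best 3000 peaks Son had 7 TCP and 13 TBP peaks and Setd2 had 4 TCP and 7 TBP peaks, but Tlr2 had 6 TCP and 4 TBP peaks.

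By annotation, TCP peaks were slightly less often in 3′ UTRs than TBP peaks. The 3′ UTR held 48.5% of TCP peaks (47.3 to 49.7) and 50.7% of TBP peaks (49.4 to 51.9), a difference of -2.16 percentage points (-3.86 to -0.455), and exons outside UTRs held 47.6% of TCP and 45.5% of TBP peaks, a difference of 2.17 points (0.472 to 3.87). For 5′ UTRs the shares were 3.85% in TCP and 3.87% in TBP, and the interval of the difference ran from -0.675 to 0.642 points. At equal list length the 3′ UTR difference was -1.77 points (-3.51 to -0.018), and among the best 3000 peaks it was -2.20 points with an interval that holds 0 (-4.73 to 0.33). The exon difference was 1.73 points at equal list length (-0.00909 to 3.48) and 2.30 points among the best 3000 peaks (-0.222 to 4.82), and both intervals hold 0. The difference was larger among the one-list peaks, where 3′ UTRs held 46.2% of TCP-only and 50.1% of TBP-only peaks, a difference of -3.90 points (-6.25 to -1.53). Among shared peaks 3′ UTRs held 51.3% in TCP and 51.2% in TBP. Shared peaks of the 2 lists overlap each other, so their class shares are alike by construction. A class difference between the lists therefore falls on the one-list peaks, and its larger size there is no separate result. Among exon peaks, internal exons held 67.4% of the TCP-only and 65.8% of the TBP-only peaks, against 56.3% of the shared TCP and 55.4% of the shared TBP peaks.

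**Figure D4:**
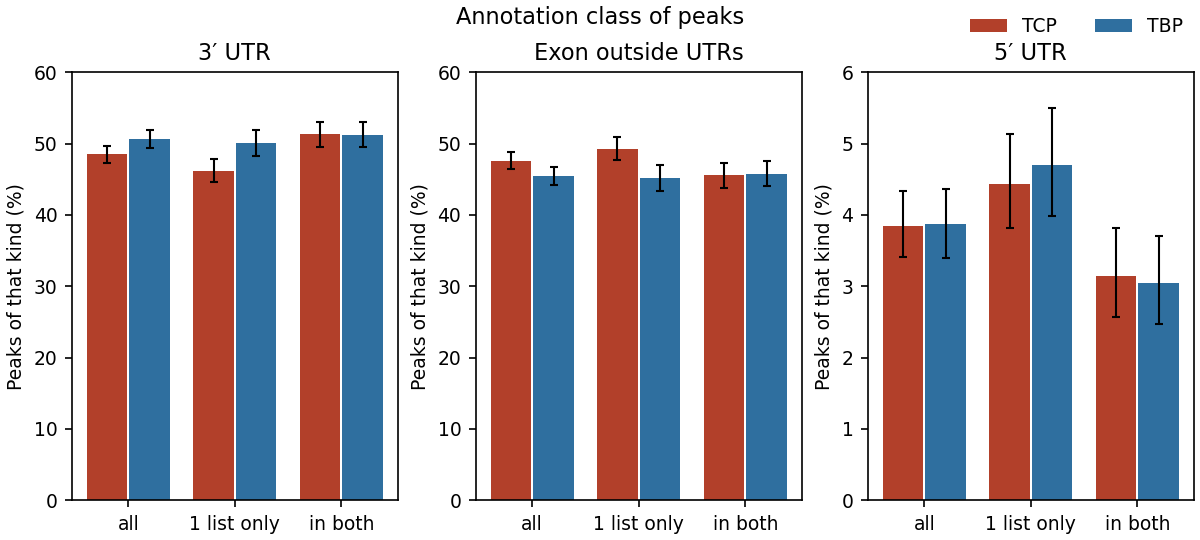
Share of peaks (%) annotated to 3′ UTRs, exons outside UTRs and 5′ UTRs (right panel, on a smaller scale), for TCP (left bar of each pair) and TBP, over all peaks, peaks in 1 list only and peaks in both; bars are exact 95% intervals. One-list peaks were in 3′ UTRs in 46.2% of cases for TCP and 50.1% for TBP.

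Wide peaks differed in number. Peaks over 500 bp of genome numbered 157 for TCP (2.25%) and 90 for TBP (1.43%), a difference of 0.817 points (0.359 to 1.28). Of these wide peaks, 75.2% in TCP and 67.8% in TBP were found in 1 list only. Over all peaks the one-list shares were 54.5% for TCP and 49.8% for TBP. Wide peaks held 55.7% of the length covered by TCP peaks and 48.9% of that covered by TBP peaks. Taken by covered length, the class differences were -4.41 points for 3′ UTRs, 6.54 for exons and -2.13 for 5′ UTRs. Without them the peaks covered 411 kb for TCP and 380 kb for TBP, against 927 kb for TCP and 744 kb for TBP with them.

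Genes of macrophage identity had no TCP-only member. Of the 16 with a peak, 10 had peaks in both lists, 0 had TCP peaks only and 6 had TBP peaks only (37.5%, against 16.3% of all genes), and at equal list length there were again 0 TCP-only and 6 TBP-only members. The TBP-only members included Ctss, a lysosomal protease (2 TBP peaks, best at chr3:95556121-95556145, rank 888), Lyz2, Cd68, a glycoprotein of lysosomes (rank 4741), Fcgr2b, the inhibitory IgG receptor (rank 3788), and Trem2, a lipid receptor (rank 2789). Of these, all but Ctss had 1 TBP peak, and 4 of the 6 (Ctss, Lyz2, Cd68 and Trem2) had a control peak. Total peaks of the group were 39 in TCP and 42 in TBP, with more TCP peaks in 6 of the 16 genes and more TBP peaks in 8. Of the genes in both lists, Csf1r (5 TCP, 4 TBP), Irf8 (3 TCP, 1 TBP) and Mpeg1 (10 in each list) had as many TCP peaks or more. Cd14 (5 TCP, 7 TBP) and Ctsd (1 TCP, 2 TBP) had fewer. Among the best 3000 peaks the one-list members were 2 for TCP and 3 for TBP.

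Innate immune sensors were marked in both lists. Toll-like receptor signalling had 13 genes in both lists, 2 TCP-only (Tlr1 and Irak3) and 3 TBP-only (Tlr6, Map3k7 and Tbk1). The one-list members made up 11.1% (TCP-only) and 16.7% (TBP-only) of its 18 marked genes, against 23% and 16.3% over all genes. Tlr7 had 12 TCP and 15 TBP peaks, Tlr4, the lipopolysaccharide receptor, had 3 TCP and 5 TBP peaks, and Tlr13, a sensor of bacterial ribosomal RNA, had 7 TCP and 4 TBP peaks. In the NF-kB group Tnf, an inflammatory cytokine gene, had 1 peak in each list, and Ripk1, a kinase of the TNF receptor, had 2 TCP and 0 TBP peaks. Few cytokine genes had a peak, with Ccl3 and Tgfb1 TCP-only by 1 peak each.

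Genes of the integrated and ER stress response had more TCP-only than TBP-only members, as did all genes together. Of 24 with a peak, 15 were in both lists, 7 were TCP-only (29.2%) and 2 TBP-only (8.33%). Over all genes the shares were 23% TCP-only and 16.3% TBP-only. The group had 59 TCP and 42 TBP peaks, a ratio of 1.40 against 1.11 over all genes. The TCP-only members were Atf3, a stress-induced transcription factor (2 peaks, best at chr1:191170646-191170720, rank 1541), Dnajc3, an ER-resident inhibitor of eIF2-alpha kinases (2 peaks, rank 4645), and, with 1 peak each, Eif2ak4, Eif2b3, Ddit4, Trib3 and Atf6b. Eif2ak4, Eif2b3, Ddit4 and Trib3 stood at rank 5932, where 1050 TCP peaks tie at the lowest score, and Atf6b stood at rank 5229. Canx, the ER chaperone calnexin, had 0 TCP and 3 TBP peaks (rank 1452), and Edem1, which sends misfolded glycoproteins to degradation, had 0 TCP and 1 TBP peak. Of genes in both lists, Sel1l, a subunit of an ER degradation ligase, had 8 TCP and 4 TBP peaks, Hspa5 had 7 TCP and 3 TBP peaks, Pdia6, a disulfide isomerase, had 6 TCP and 3 TBP peaks, and Hsp90b1, an ER chaperone, had 2 TCP and 4 TBP peaks. At equal list length 4 members were TCP-only and 2 TBP-only, and among the best 3000 peaks 3 were TCP-only and 3 TBP-only.

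DNA replication and repair genes were often TCP-only. Of 53 with a peak, 25 were in both lists, 19 were TCP-only (35.8%) and 9 TBP-only (17.0%), near the background for TBP and above the 23% background for TCP. Brca1 and Bard1, which pair in homologous recombination, had 2 and 1 TCP peaks and 0 TBP peaks, as did Rad50 (2), Fanci (2) and Polh (2), which act at breaks, crosslinks and damaged templates. Orc2, of the origin recognition complex, had 0 TCP and 2 TBP peaks. Among genes in both lists Rif1, Atrx (4 TCP, 7 TBP) and Msh6 (3 TCP, 5 TBP) had more TBP peaks, and the group's totals were 76 TCP and 68 TBP peaks, a ratio of 1.12. One-list members numbered 15 for TCP and 9 for TBP at equal list length, and 13 for TCP and 0 for TBP among the best 3000 peaks. In the related group of cell cycle and mitosis, 36 of 49 genes were in both lists, 6 were TCP-only (12.2%) and 7 TBP-only (14.3%). Both shares lay below those over all genes, 23% and 16.3%. Its peaks numbered 143 in TCP and 116 in TBP, a ratio of 1.23 against 1.11 over all genes. Cenpf (22 TCP, 12 TBP) and Mki67 (34 TCP, 27 TBP) held most of that excess. Aurka, a mitotic kinase, had 2 TCP and 0 TBP peaks, Top2a, a topoisomerase, had 5 TCP and 2 TBP peaks, and Racgap1, which acts in cytokinesis, had 0 TCP and 2 TBP peaks.

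**Figure D5:**
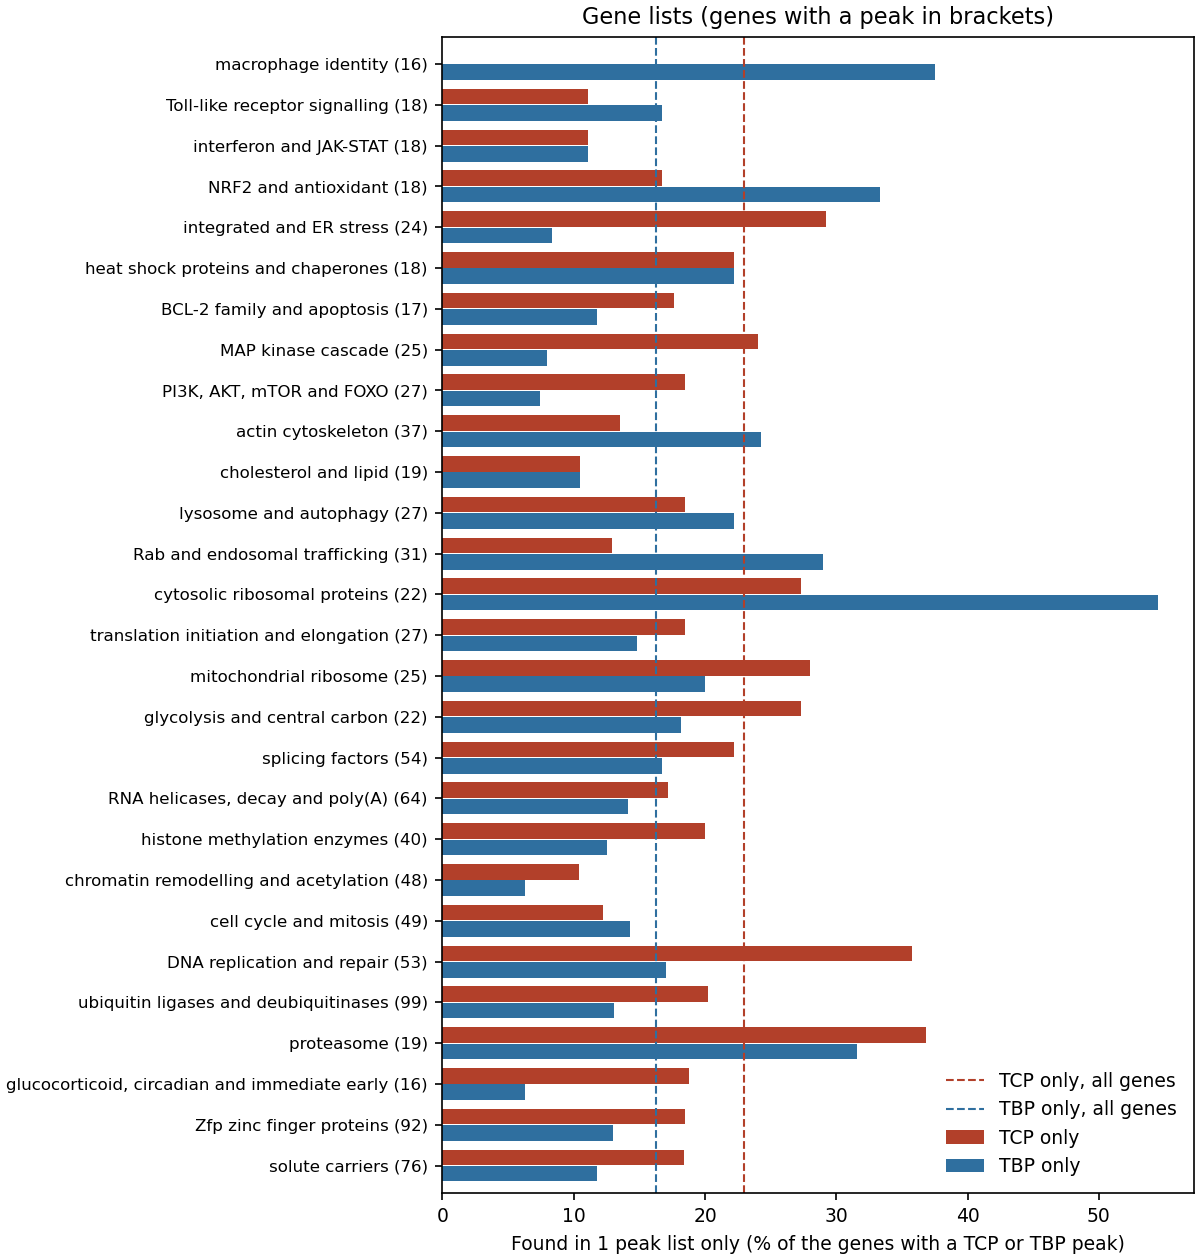
Share of marked genes (%), in the 28 gene groups with at least 15 of them, that had peaks in the TCP list only (upper bar) or the TBP list only (lower bar), with the number of genes that had a TCP or TBP peak in brackets; dashed lines are the shares over all 4063 genes, 23% for TCP-only and 16.3% for TBP-only. Macrophage identity genes and cytosolic ribosomal protein genes lie farthest right for TBP-only, at 37.5% and 54.5%.

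Cytosolic ribosomal protein genes, known to be short and abundantly transcribed, were seldom marked by both lists. Of 78 genes, 22 had a peak: 4 in both lists, 6 in TCP only (27.3%) and 12 in TBP only (54.5%), with 11 TCP and 19 TBP peaks. Over all genes the shares were 23% TCP-only and 16.3% TBP-only. Among the best 3000 peaks 1 member was TCP-only and 5 were TBP-only. All one-list members but Rpl4 had 1 peak, for example Rpl24 and Rpl22 in TCP and Rpl28 in TBP. These genes have many processed copies, so where the reads came from is uncertain. The mitochondrial ribosome, whose genes are nuclear, had 13 of 25 genes in both lists, 7 TCP-only (28%) and 5 TBP-only (20%), with 27 peaks in each list. Its one-list shares were a little above those over all genes.

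Genes of the actin cytoskeleton and of membrane traffic had more TBP-only than TCP-only members. The actin group had 23 genes in both lists, 5 TCP-only (13.5%) and 9 TBP-only (24.3%) of 37. Over all genes the shares were 23% TCP-only and 16.3% TBP-only. Rhob had 4 TCP and 0 TBP peaks, and Tmsb4x, Brk1 (a subunit of the WAVE complex) and Coro1a (an actin-binding coronin) had 0 TCP and 2 TBP peaks each. Rab and endosomal traffic had 18 of 31 in both, 4 TCP-only (12.9%) and 9 TBP-only (29%). The TBP-only members included Rab1a (0 TCP, 3 TBP peaks), which acts between ER and Golgi. At equal list length there were 5 TCP-only and 10 TBP-only actin genes and 3 TCP-only and 10 TBP-only traffic genes. Among the best 3000 peaks actin had 9 TCP-only and 6 TBP-only genes and traffic had 4 TCP-only and 5 TBP-only genes. The antioxidant group of NRF2 had 9 of 18 genes in both, 3 TCP-only (16.7%) and 6 TBP-only (33.3%). Nfe2l2, which encodes NRF2, and Keap1, its inhibitor, were in both lists (6 TCP and 5 TBP peaks for Nfe2l2, 4 TCP and 5 TBP peaks for Keap1). The NRF2 targets Gclm (TCP-only) and Txn1, Sod1, Cat and Ftl1 (TBP-only) had 1 peak each.

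Kinase pathways had TCP-only shares near or below the background of 23% and TBP-only shares below that of 16.3%. The MAP kinase cascade had 17 of 25 genes in both lists, 6 TCP-only (24%) and 2 TBP-only (8%), with Sos2, an activator of RAS, at 2 TCP and 0 TBP peaks (rank 683) and Dusp4, a MAP kinase phosphatase, at 1 TCP and 0 TBP peaks. The PI3K, AKT and mTOR group had 20 of 27 in both, 5 TCP-only (18.5%) and 2 TBP-only (7.41%): Rptor, the mTORC1 scaffold, had 3 TCP and 0 TBP peaks, and Tsc1, an inhibitor of mTORC1, had 0 TCP and 2 TBP peaks. At equal list length the MAP kinase group had 5 TCP-only and 2 TBP-only genes and the PI3K group had 2 of each.

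Part of the m6A machinery was marked in both lists. Of 13 genes in the methyltransferase group, 8 had a peak, and Mettl3 and Mettl14 were not among these 8. In both lists were 7 of them, including Rbm15 (9 TCP, 8 TBP peaks), Virma (5 TCP, 4 TBP), Wtap (3 TCP, 2 TBP) and Zc3h13 (2 TCP, 3 TBP). Mettl5, the 18S ribosomal RNA methylase, was TCP-only with 1 peak at rank 4645. Of 19 readers and erasers, 10 had a peak, and Alkbh5 and Fto were not among these 10. In both lists were 9 of them, with 6 TCP and 7 TBP peaks for Ythdf2 and 6 TCP and 4 TBP peaks for Ythdf3. Ythdf1 had 4 TCP and 2 TBP peaks and Ythdc1 had 1 TCP and 3 TBP peaks. Fmr1, which encodes the RNA-binding protein FMRP, was TCP-only with 1 peak. Nuclear long non-coding RNAs had fewer TCP than TBP peaks, 13 in TCP against 20 in TBP over 5 genes. The ratio was 0.65, against 1.11 over all genes. Among the best 3000 peaks Neat1 had 1 TCP and 6 TBP peaks, but Tug1 had 4 TCP and 3 TBP peaks. Neat1 had 3 TCP and 7 TBP peaks, Tug1 had 6 TCP and 8 TBP peaks, Kcnq1ot1 and Gas5 had equal numbers, and Ftx had 0 TCP and 1 TBP peak.

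In the 3 largest groups both one-list shares lay below the background. This was not particular to them: RNA helicases and decay factors, for example, had 17.2% TCP-only and 14.1% TBP-only genes. Ubiquitin ligases and deubiquitinases had 66 of 99 genes in both lists, 20 TCP-only (20.2%) and 13 TBP-only (13.1%); zinc finger genes of the Zfp series had 63 of 92 in both, 17 TCP-only (18.5%) and 12 TBP-only (13.0%); solute carriers had 53 of 76 in both, 14 TCP-only (18.4%) and 9 TBP-only (11.8%). Splicing factors had 33 of 54 in both, 12 TCP-only and 9 TBP-only. Chromatin remodelling and acetylation had 40 of 48 in both, 5 TCP-only and 3 TBP-only, with Crebbp, a histone acetyltransferase, at 7 TCP and 2 TBP peaks. The proteasome had 6 of 19 genes in both lists, against 2465 of 4063 over all genes. Its 7 TCP-only (36.8%) and 6 TBP-only (31.6%) members lay above the background shares of 23% and 16.3%. All of its one-list members but Psmd6 (2 TCP peaks) had 1 peak.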

How the data were processed

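Total RNA of RAW264.7 cells was immunoprecipitated with an m6A antibody and 40 to 60 nt fragments were gel-selected for sequencing, per the labels' protocols. The submitters' processing notes name HISAT2 2.1.0, Trim Galore 0.6.5, StringTie 2.1.4, HOMER 4.11, ChIPseeker 1.26, deepTools 3.5.0, SAMtools 1.9, Picard 2.23.5 and FastQC 0.11.9 among the tools, without saying what each did, and mm10 (GRCm38) as the build. How peaks were called, at what threshold and with what use of the inputs is not given in the sources used here. The authors deposited 1 peak list per immunoprecipitated library, giving for each peak its position and strand, an annotation class, the nearest gene and a score on an unstated scale. Called widths move in 25-bp steps for 97.1% of TCP and 97.9% of TBP peaks, which sets how finely an overlap or a gap can be read.

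Each of the 13266 peaks was given a host gene in 3 steps: the gene whose exon the lists name (45.2%), then the listed nearest gene where it contains the peak on that strand (16.4%), then the only RefSeq gene, or else the only protein-coding one, spanning the peak on its strand (36.9%; GRCm38.p6). A host gene was found for 98.4%, and it was not the one in the deposited nearest-gene column for 24.4%. Overlaps were computed with Python 3.11.15, pandas 2.3.3, numpy 2.4.6 and scipy 1.17.1, and tested on simulated peaks, where 600 of 600 planted shared peaks were recovered. At equal list length, TCP peaks tied at the cut were ordered at random with a fixed seed.

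The comparison, its 42 gene groups and the rule for named genes were chosen with earlier results of these data known. The rule took the 12 best-ranked genes found in 1 list only on each side, the 8 with the largest excess of peaks on each side among genes in both lists (ties by number of peaks, then by alphabet), the 8 with the best mean rank in both lists, and up to 4 members per gene group, those in 1 list only with the most peaks and then those with the largest difference in peak number; unnamed genes and pseudogenes were passed over. Results for a few genes are not reported here. Gene group members beyond these, the genes with sequences and those picked for their place were chosen after their values were seen. Alternatives were another overlap minimum, strand ignored, list length, a score minimum, wide peaks left out, the deposited gene column and covered length.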

Additional observations from a re-analysis of the deposited data

How the results depend on the processing

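With 1 library per condition no replicate could be left out. No paired analysis was possible because each compound has 1 library and no test was made. The one-list shares of peaks depended on list length and on what counts as overlap. For TCP-only they were 51.7% with the TCP list cut to the TBP length, 45.6% among the best 3000 peaks of each list, 48.7% at or above the median score of each list, 70.8% at a reciprocal 50% overlap and 38.8% within 100 bp, against 54.5% as reported. For TBP-only they were 51.9% at the equal length, 46.3% among the best 3000 peaks, 44.8% by median score, 67.6% at a reciprocal 50% overlap and 33.8% within 100 bp, against 49.8% as reported. Leaving out wide peaks, ignoring strand and asking for 50% of the shorter peak moved neither share beyond its interval. Of genes, 25.3% of TCP genes were TCP-only and 24.6% of TBP genes TBP-only at equal list length, and 23.8% of TCP genes and 26.1% of TBP genes with the tied peaks left out, which leaves 5931 TCP peaks against 6285 TBP peaks. TBP-only genes made up 27.7% among the best 3000 peaks and 23.5% at or above the median score. By covered length the TCP minus TBP differences were -4.41 points for 3′ UTRs, 6.54 for exons and -2.13 for 5′ UTRs; the cause was not tested. Among the best 3000 peaks 788 genes had more TCP and 784 more TBP peaks. There the TCP minus TBP peak number reversed for Ahnak (-7), Tlr2 (2) and Zfp638 (-4), and moved for 29. These were out of the 47 genes named for their rank or excess, not as members of a gene group. At equal list length 7 moved and 0 reversed. The lowest scores, where 1050 TCP and 909 TBP peaks are tied, limit every count of one-list peaks.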

Other observations

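Further gene groups split between the compounds' lists without a common direction. Chaperones had 10 of 18 genes in both lists, 4 TCP-only (22.2%) and 4 TBP-only (22.2%), against 23% and 16.3% over all genes. Hspd1, the mitochondrial chaperonin, and Hsp90aa1, the inducible cytosolic Hsp90, had 3 TCP and 0 TBP peaks each, while Dnaja2 and Cct3 had 0 TCP and 4 TBP peaks each and Hspa8, the constitutive Hsp70, had 0 TCP and 1 TBP peak. Of other CCT chaperonin subunits, Cct5 had 0 TCP and 2 TBP peaks and Cct8 had 1 in each list. Glycolysis and central carbon metabolism had 12 of 22 genes in both lists, 6 TCP-only (27.3%) and 4 TBP-only (18.2%). These shares were near those over all genes. Pkm, pyruvate kinase, and Pdk1, which restrains entry into the citric acid cycle, had 2 TCP and 0 TBP peaks each, whereas Ldha, lactate dehydrogenase, had 0 TCP and 1 TBP peak. Slc2a1, the glucose transporter GLUT1, had 1 TCP and 3 TBP peaks, and Slc16a1, the lactate transporter MCT1, had 9 TCP and 6 TBP peaks.

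Some genes marked by both compounds had many peaks and no overlapping pair. Txnl4a, a spliceosome protein, had 5 TCP and 7 TBP peaks, Tpr, of the nuclear pore basket, had 8 TCP and 3 TBP peaks, and Brd1, a reader of acetylated histones, had 6 TCP and 4 TBP peaks. Golga4, a golgin, had 5 in each list. Among regulators of messenger RNA decay, Btg2, Tob1 and Edc3 had 0 TCP and 2 TBP peaks each, and Pum2, a repressor that binds 3′ UTRs, had 4 TCP and 1 TBP peaks. Crebbp (7 TCP, 2 TBP), Ddx21, a nucleolar helicase (7 TCP, 3 TBP), and Slc25a46, of the outer mitochondrial membrane (5 TCP, 1 TBP), were among the genes with at least 3 more TCP peaks, and Mbnl1, a splicing regulator (4 TCP, 8 TBP), was among those with at least 3 fewer. These genes were chosen after their values were seen.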
